A study of Homo sapiens with 2 samples.

Results

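Aminoacyl-tRNA synthetases were examined in GFP-SAS cells, an established human line of tongue squamous cell carcinoma that carries green fluorescent protein. The family list held 36 genes, of which 35 had at least 1 probe set annotated to them alone, out of 18239 genes with such probe sets on the array. Of the 20 cytosolic enzymes listed, 19 had values and 1 is not analysed here. All 16 mitochondrial enzymes listed had values. The genes were chosen by their annotation, with the differences between these arrays already known, so every difference is given as a description and without a test. Names follow the older symbols, so AARS stands for the gene now called AARS1, and likewise for the other cytosolic enzymes whose current symbol ends in 1.

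For 24 h the anti-miR cells were exposed to an LNA/DNA oligonucleotide antisense to miR-361-3p at 25 nM, and the control cells to a non-target oligonucleotide at that dose. Total RNA from each culture (10 ng) was labelled with biotin and hybridised to an Affymetrix 3' expression array. There was 1 array per group, so no difference can be set against the variation between cultures. In a bulk RNA sample, fewer cells of a type and less RNA per cell cannot be told apart. The microRNA whose inhibition defines the comparison is printed from RefSeq (GRCh38.p14, chrX:85903641-85903663, minus strand), with its seed, bases 2 to 8, in capitals.
hsa-miR-361-3p: uCCCCCAGgugugauucugauuu

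Each aminoacyl-tRNA synthetase joins 1 kind of amino acid to its matching tRNA, the step at which the genetic code is read by protein enzymes. The cytosol and the mitochondria mostly use separate nuclear genes for this, and the mitochondrial ones carry the ending 2. GARS and KARS make both forms from 1 gene, and mitochondrial glutaminyl-tRNA is made by amidation of a precursor charged with glutamate. Several cytosolic enzymes sit together in the multisynthetase complex, and several are known targets of ATF4, the transcription factor of the amino acid response.

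The values are RMA log2 levels per probe set, and a gene's value is the mean of all its probe sets. The arrays had medians of 4.64 (anti-miR) and 4.63 (control). The median of all 18239 genes was 0.10 higher on the anti-miR array on the log2 scale, and the poly-A controls added before labelling were higher by 0.32 ± 0.19 (SD over 12 probe sets). The part of these offsets in any gene's difference was not tested. The nonspecific control probe sets reached 7.16 with the anti-miR and 6.87 in the control, and a value under these limits is not shown to be above background. Of 10 squamous epithelial markers listed, 7 had values, and 4 of these (KRT5, SFN, EPCAM and DSP) exceeded those limits on both arrays. The others lay under them, with KRT14 at 3.87 and 3.63 (anti-miR first), PKP1 at 4.31 and 3.88 and CDH1 at 6.31 and 6.53. No endothelial (5), leukocyte (4) or fibroblast (6) marker with a value exceeded those limits, and their gene levels ran from 2.30 to 4.07.

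Most synthetase genes lay within 1.5-fold between the arrays, and the widest difference was in a subunit of the enzyme for phenylalanine. FARSB, the beta subunit of cytosolic phenylalanyl-tRNA synthetase, was lower by 2.38-fold in the anti-miR cells. FARSA, the alpha subunit of the same enzyme, was 1.49-fold higher. Of the 35 genes, 1 was at least 1.5-fold higher (AARS2) and 3 were at least 1.5-fold lower (FARSB, FARS2 and NARS2), while 31 lay within 1.5-fold. These shares, 2.86% higher and 8.57% lower, compare with 4.4% higher and 7.37% lower among all 18239 genes. Among the 8975 genes whose mean level reached the median of the arrays, 7.92% were higher and 12.6% lower. The share of lower synthetases lay between these backgrounds and that of higher synthetases under both. These shares rest on 3 and 1 genes, so no contrast with the array is read from them. Over all genes, 802 were higher and 1345 lower, a split of 37.4% higher among those past the threshold. That split became 22.4% with the median gene set to 0 and 17.4% with a trend on level removed.

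Among the 19 cytosolic genes 0 were higher and 1 was lower by 1.5-fold, and their median difference was 0.14, against 0.10 for all genes. Among the 16 mitochondrial genes 1 was higher and 2 were lower, with a median of 0.05. Both medians turned to the other side of 0 with the trend on level removed (-0.03 and -0.09), so no direction is given for either group. The median size of the difference, sign aside, was 0.24 for cytosolic and 0.31 for mitochondrial genes. It was 0.20 for all genes and 0.30 for those with levels at or above the median. The difference of the 27 genes with several probe sets varied between probe sets of 1 gene with a pooled SD of 0.26, a technical spread within these arrays. All probe sets had 1 sign in 23 of those 27 genes. The exceptions were MARS, MARS2, VARS and WARS.

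**Figure D1:**
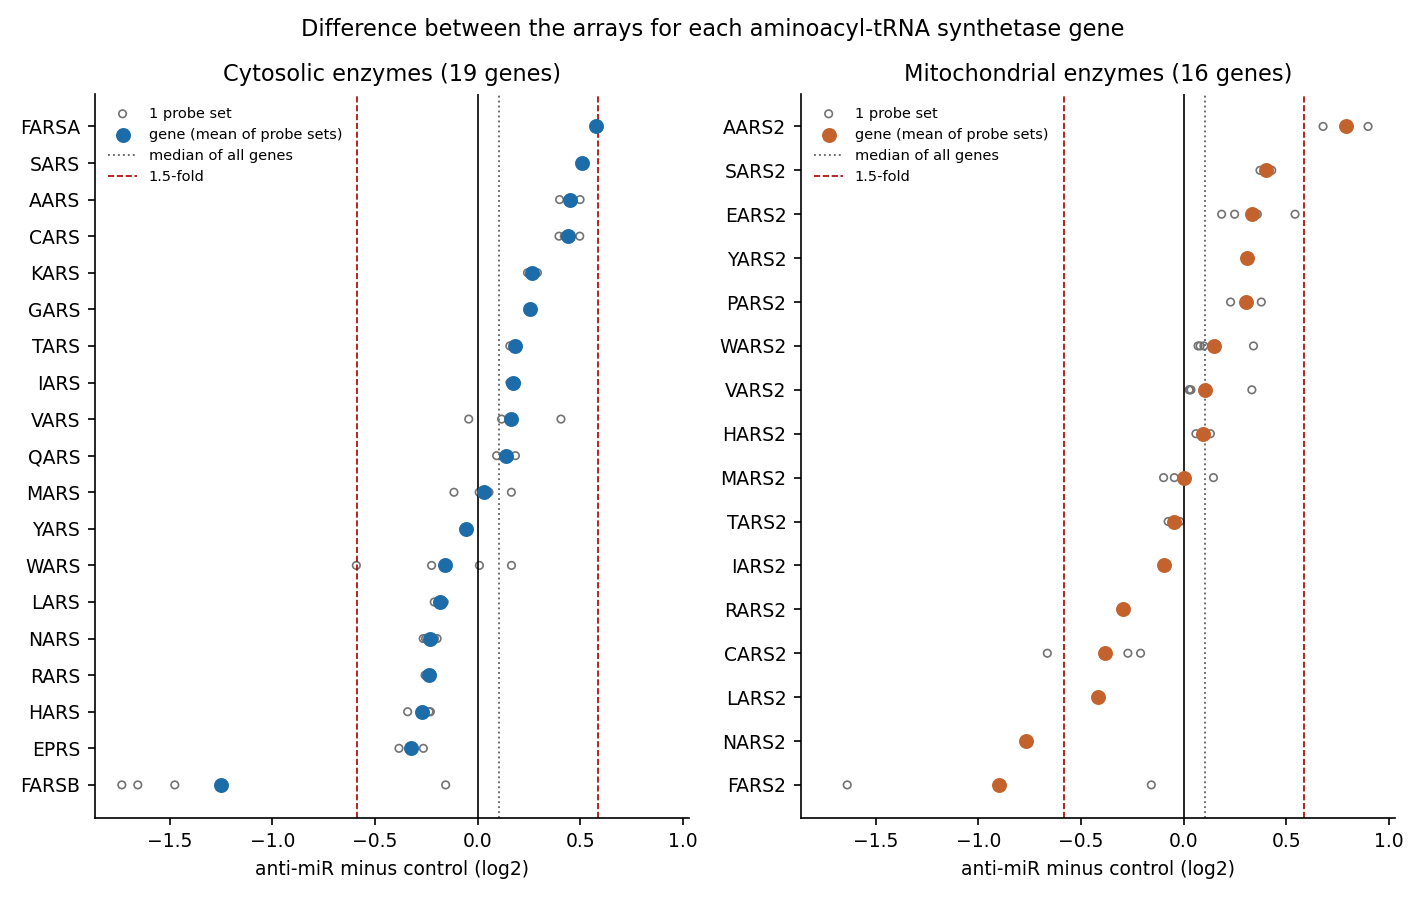
Anti-miR minus control difference (log2) for 19 cytosolic and 16 mitochondrial synthetase genes; filled points are gene means, open circles single probe sets, the dotted line the median of all genes (0.10) and the dashed lines 1.5-fold. FARSB (-1.25) lies alone at the low end of the cytosolic genes and FARSA (0.58) at their high end.

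Phenylalanyl-tRNA synthetase of the cytosol is built from alpha and beta subunits, and both are needed for its activity. FARSB was read by 5 probe sets. Their values on the control array were 9.41, 9.19, 8.82, 8.70 and 3.03, and on the anti-miR array, in the same order, 7.68, 7.53, 7.34, 7.46 and 2.88. The first 4 lay above the nonspecific controls on both arrays and were lower on the anti-miR array by similar amounts, while the dim one hardly differed. The gene difference was -1.25 ± 0.64 (SD over 5 probe sets), and -1.53 ± 0.22 over the 4 bright probe sets, a 2.88-fold lower level. By decrease FARSB ranked 325 of 18239 genes, ahead of every other synthetase in that direction. With dim probe sets left out, FARS2 read -1.64 and FARSB -1.53. The kept FARS2 probe set was above the array median on the control array alone, so this order rests on the filter.

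FARSA was read by 1 probe set, at 8.35 with the anti-miR and 7.77 in the control. Both values lay above the nonspecific controls. Its difference of 0.58 fell just short of the 1.5-fold threshold and ranked 832 of 18239 by increase. The difference of FARSA exceeded that of FARSB by 1.83 on the log2 scale, so the subunits of 1 enzyme differed in opposite directions on these arrays. FARS2, which charges phenylalanine in mitochondria as a single chain, had control values of 5.35 and 4.38 and anti-miR values of 3.71 and 4.22. Only the first probe set differed clearly (-1.64, against -0.16 for the other), and neither lay above the nonspecific controls. Its gene difference of -0.90 became -1.64 when dim probe sets were left out or only the highest one was read. Both choices keep the first probe set, which exceeded the array median in the control alone, so the size for FARS2 is not exact.

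**Figure D2:**
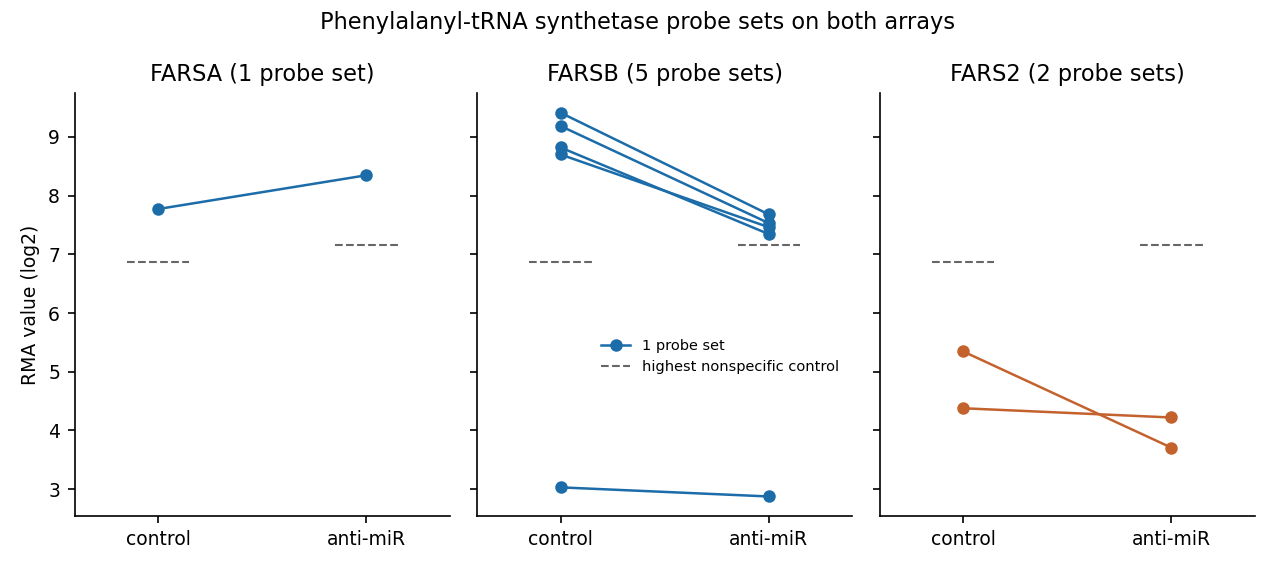
RMA value (log2) of each probe set of FARSA (1), FARSB (5) and FARS2 (2) on the control and the anti-miR array, joined by lines; dashes mark the highest nonspecific control on each array (6.87 and 7.16). The 4 bright FARSB probe sets lie between 8.70 and 9.41 on the control array and between 7.34 and 7.68 on the other, and the FARSA probe set lies higher on the anti-miR array.

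Outside phenylalanine, the higher cytosolic genes were SARS, AARS and CARS, which charge serine, alanine and cysteine. SARS was at 9.97 with the anti-miR and 9.46 in the control (1 probe set), a 1.42-fold higher level. AARS was at 8.03 and 7.58 in the same order, with a difference of 0.45 ± 0.07 (SD over 2 probe sets). CARS was at 6.99 and 6.55, with a difference of 0.44 ± 0.05 (SD over 3 probe sets). Its gene mean lay under the nonspecific controls on both arrays, although its probe sets at 7.29 and 6.90 and at 7.51 and 7.01 lay above them. These 3 genes kept differences of 0.28 to 0.51 under every alternative that was run. All stayed short of 1.5-fold.

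A second tier of cytosolic genes lay closer to the median gene. KARS, for lysine, was at 10.94 with the anti-miR and 10.67 in the control, and GARS, for glycine, at 10.02 and 9.77. Their differences of 0.27 and 0.26 were nearly the same in both probe sets of each gene. TARS, for threonine, was at 11.22 and 11.03 (anti-miR first, here and for the genes that follow), a difference of 0.18 ± 0.02 (SD over 3 probe sets). IARS, for isoleucine, was at 11.09 and 10.92, a difference of 0.17 ± 0.01 (SD over 4 probe sets). These genes were higher in each of their probe sets. VARS, for valine, was at 4.69 and 4.53, close to the medians of the arrays, and its 4 probe sets ran from -0.04 to 0.41. QARS, for glutamine, was at 7.83 and 7.69, a difference of 0.14. MARS, for methionine, was at 6.20 and 6.17, a difference of 0.03. QARS turned to -0.03 with the trend on level removed, and MARS to -0.12.

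The lower cytosolic genes, FARSB aside, differed by at most 0.32 in size. EPRS, a fused enzyme for glutamate and proline, was at 8.63 with the anti-miR and 8.95 in the control. Its difference was -0.32 ± 0.08 (SD over 2 probe sets). HARS, for histidine, was at 8.34 and 8.61, a difference of -0.27 ± 0.06 (SD over 3 probe sets). RARS, for arginine, was at 9.72 and 9.96, a difference of -0.24, and NARS, for asparagine, at 8.57 and 8.80, a difference of -0.23 ± 0.03 (SD over 4 probe sets). Every probe set of these genes was lower. LARS, for leucine, was at 7.92 and 8.10, a difference of -0.18 ± 0.02 (SD over 3 probe sets). WARS, for tryptophan, was at 6.15 and 6.31, and its 4 probe sets disagreed, from -0.59 to 0.17 around a mean of -0.16. YARS, for tyrosine, was at 8.16 and 8.21, a difference of -0.06 (1 probe set).

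Of the mitochondrial genes, AARS2, for alanine, had the largest increase. Its probe sets lay at 6.44 and 5.83 with the anti-miR and at 5.54 and 5.15 in the control. Both probe sets were higher after the anti-miR, by 0.90 and 0.68, which made the gene 1.73-fold higher and rank 291 of 18239 by increase. NARS2, for asparagine, was at 6.44 with the anti-miR and 7.21 in the control (1 probe set), a 1.70-fold lower level. AARS2 did not exceed the nonspecific controls on either array, nor did NARS2 in the anti-miR cells, so these folds are not exact sizes.

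The remaining mitochondrial genes lay within 1.5-fold. SARS2, for serine, was at 4.49 and 4.09 (anti-miR first), a difference of 0.40 ± 0.04 (SD over 2 probe sets). EARS2, for glutamate, was at 5.60 and 5.26, a difference of 0.33 ± 0.16 (SD over 4 probe sets). PARS2, for proline, was at 4.72 and 4.41, a difference of 0.30 ± 0.11 (SD over 2 probe sets). All probe sets of these 3 genes were higher, and so was the single one of YARS2, for tyrosine, at 7.83 and 7.52 (0.31). On the other side, LARS2 was at 6.65 with the anti-miR and 7.07 in the control, a difference of -0.42 (1 probe set). CARS2 was at 5.08 and 5.46, a difference of -0.38 ± 0.25 (SD over 3 probe sets), and RARS2 at 7.20 and 7.50, a difference of -0.29 (1 probe set). The remaining 6 genes lay nearest to 0. WARS2 was at 5.24 and 5.10 (0.15), VARS2 at 4.21 and 4.10 (0.11) and HARS2 at 6.30 and 6.21 (0.10). MARS2 was at 5.75 on both arrays, TARS2 at 5.76 and 5.80 (-0.05) and IARS2 at 9.44 and 9.53 (-0.09). The mitochondrial genes with both gene means above the nonspecific controls were IARS2, RARS2 and YARS2, 3 of 16, against 14 of 19 cytosolic genes. The cytosolic genes short of this by gene mean were CARS, FARSB, MARS, VARS and WARS. MARS2 had 1 of 3 probe sets above the nonspecific controls on both arrays, at 7.55 and 7.40.

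In 13 amino acids with 1 cytosolic and 1 mitochondrial gene, the signs were alike in 7 and opposite in 6. Several of these signs rest on a difference near 0, so no general direction is read from the count. Opposite pairs held IARS2 (-0.09), TARS2 (-0.05), YARS (-0.06), HARS2 (0.10) and WARS with WARS2 (-0.16 and 0.15). The methionine pair counted as alike with MARS2 at 0.0007. Alanine (0.45 and 0.79, cytosolic first) and serine (0.51 and 0.40) were higher in both compartments. Asparagine (-0.23 and -0.77), leucine (-0.18 and -0.42) and arginine (-0.24 and -0.29) were lower in both. Cysteine had the widest split, with CARS at 0.44 and CARS2 at -0.38. Neither gene mean exceeded the nonspecific controls on either array, and CARS2 read -0.24 with the filter on dim probe sets at the array median. HARS and HARS2 are neighbours that run in opposite directions from adjoining starts, and 184 bases of their promoter windows in the RefSeq table are shared. HARS differed by -0.27 and HARS2 by 0.10, and HARS2 turned to -0.01 with the median gene set to 0.

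**Figure D3:**
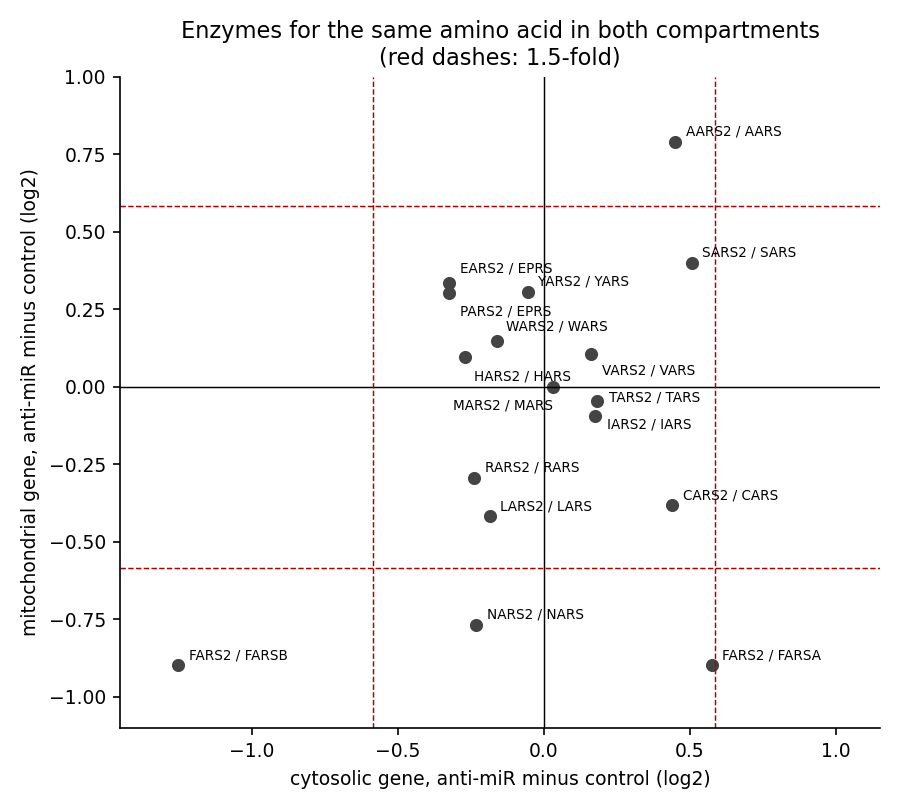
Difference of the mitochondrial gene (vertical, log2) against that of the cytosolic gene (horizontal, log2) for the same amino acid; each point is 1 pair, EPRS is paired with both EARS2 and PARS2, FARS2 with both FARSA and FARSB, and the dashed lines mark 1.5-fold. Pairs fall in all quadrants, with FARS2/FARSB (-0.90, -1.25) at the lower left and AARS2/AARS (0.79, 0.45) at the upper right.

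Membership in the multisynthetase complex gave little contrast. The 7 complex enzymes with values (EPRS, IARS, KARS, LARS, MARS, QARS and RARS) all lay within 1.5-fold, from -0.32 to 0.27, with a median of 0.03. The 12 cytosolic enzymes outside it had a median of 0.17 and ran from -1.25 to 0.58. AIMP1, a scaffold protein of the complex, was 1.56-fold higher, at 8.68 with the anti-miR and 8.04 in the control. All 5 of its probe sets were higher, by 0.48 to 0.94, but it stayed under 1.5-fold with the median gene set to 0 (0.54), with the trend on level removed (0.47) and with the median of its probe sets (0.48). The scaffolds AIMP2 and EEF1E1 had no probe set of their own here and are not analysed. By catalytic fold, the 9 class I enzymes had a median of 0.03 and the 9 class II enzymes with values a median of 0.26, EPRS being left out because it holds both folds.

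Differences ordered with the genomic span of the genes, the distance from the first to the last base in RefSeq. Spearman's rho between span and difference was -0.54 across the 35 synthetase genes, which come from the same pair of arrays and are not replicates. It was -0.38 across 18189 genes and -0.50 across 8969 genes with levels at or above the median, so the same sign of trend ran through the whole array. Of 12 synthetase genes over 50 kb, 9 were lower, with a median of -0.31. Of 23 at or under 50 kb, 17 were higher, with a median of 0.16. Over all genes 3105 of 5860 above 50 kb were lower, with a median of -0.02, and 9577 of 12329 at or under 50 kb were higher, with a median of 0.16. The short synthetases thus lay at the level of all short genes. This split was not made among genes at or above the median level, so the long synthetases have no background of like level. FARSB (89.2 kb), NARS2 (139 kb) and FARS2 (522 kb) were among the long genes, and FARSA (11.2 kb) and AARS2 (14.6 kb) among the short ones. The 3 genes over 50 kb that were not lower were CARS (56.5 kb, 0.44), IARS (83.5 kb, 0.17) and WARS2 (109 kb, 0.15). The part of gene span in these differences was not tested.

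**Figure D4:**
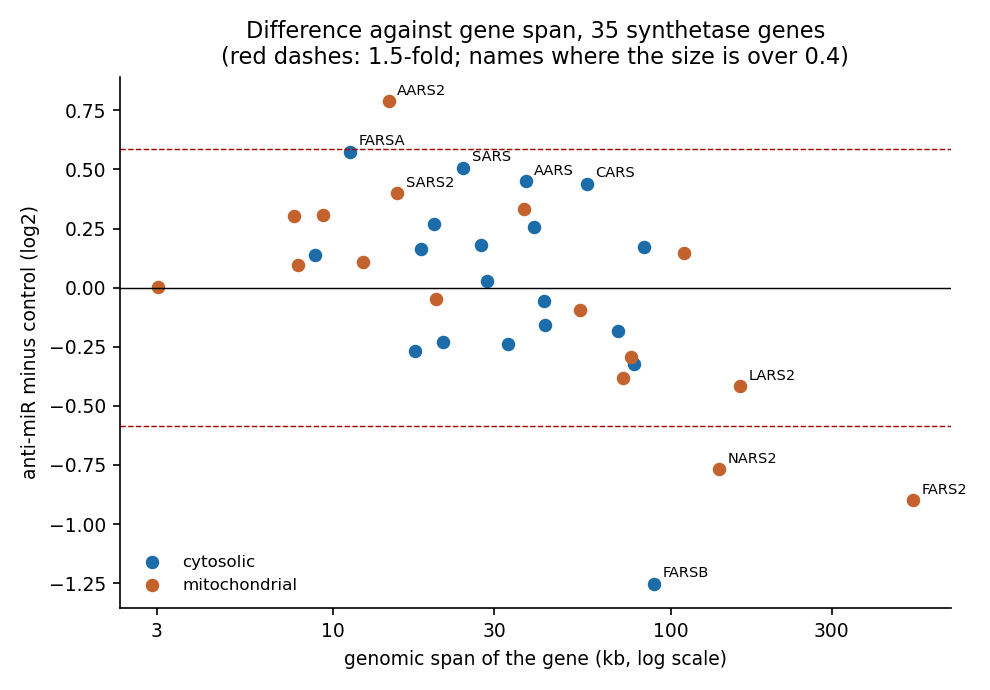
Anti-miR minus control difference (log2) against genomic span (kb, log scale) for 35 synthetase genes, coloured by compartment; dashed lines mark 1.5-fold. The genes at least 1.5-fold lower, FARSB, NARS2 and FARS2, all span more than 50 kb, and AARS2 and FARSA span under 15 kb.

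The 12 cytosolic synthetases known as ATF4 targets had a median of 0.10 (-0.04 with the trend on level removed), with 0 higher and 0 lower by 1.5-fold. Of the 12, 7 were above 0, against 12365 of all 18239 genes. The 7 others with values had a median of 0.14. ATF4 itself was 1.83-fold higher, at 11.26 with the anti-miR and 10.39 in the control (1 probe set). Of 30 other ATF4 pathway genes, ATF4 included, 3 were higher and 3 lower, with a median of 0.16. Each share is 10%, against 4.4% higher and 7.37% lower of all genes. ASNS, the asparagine synthetase that ATF4 induces, differed by 0.14 ± 0.05 (SD over 4 probe sets). DDIT3 and PPP1R15A, stress genes of the same response, were 2.21-fold and 2.06-fold higher, from control values of 4.73 and 5.97, and neither exceeded the nonspecific controls on either array. SLC7A11, a cystine transporter, was lower by 2.76-fold. Its 3 probe sets ranged between -1.95 and -0.54, and its gene level in the anti-miR cells (6.31) was under the nonspecific limit. Without probe sets of the _s_at and _x_at types, 0 genes of this list were higher by 1.5-fold. ATF4, DDIT3 and PPP1R15A, the 3 counted as higher, then had no value.

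The promoters were searched for the letters that ATF4 and MYC are known to bind. RefSeq promoter windows (GRCh38.p14, 250 bases before to 50 after a start) were found for 30 of the listed synthetases. The C/EBP-ATF response element, searched as TGATGNAA on both strands, was present in 7 of 16 cytosolic genes (43.8%) and in 1 of 14 mitochondrial genes (YARS2, 7.14%). It was present in 522 of 14492 genes on the array with a window (3.6%). The stretches below show these matches in the cytosolic genes, read 5' to 3' along the gene's own strand, with the matched letters in capitals. In 6 of the 7 the central letters are shared as TTGCATCA or its reverse complement TGATGCAA.
AARS (chr16:70289676-70289703, minus strand): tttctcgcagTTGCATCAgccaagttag
CARS (chr11:3057408-3057435, minus strand): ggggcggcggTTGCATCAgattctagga
GARS (chr7:30594835-30594862, plus strand): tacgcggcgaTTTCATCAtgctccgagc
TARS (chr5:33440957-33440984, plus strand): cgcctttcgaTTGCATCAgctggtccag
IARS (chr9:92293693-92293720, minus strand): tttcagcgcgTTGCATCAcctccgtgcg
MARS (chr12:57488054-57488081, plus strand): ccggttccggTTGCATCAgcgagggatt
NARS (chr18:57621805-57621832, minus strand): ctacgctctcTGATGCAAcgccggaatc

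In the order printed, these 7 genes differed by 0.45, 0.44, 0.26, 0.18, 0.17, 0.03 and -0.23, so 6 were above 0, with a median of 0.18. MARS, the smallest of these in size, was below 0 in 4 of 8 settings. These were both scalings, the filter on dim probe sets at the array median and the median of its probe sets. The 9 cytosolic genes whose windows lacked these letters had a median of -0.16, with 4 above 0, among them SARS and FARSA. Across the array 344 of 522 genes with the element were above 0, with a median of 0.09, and 9353 of 13970 without it, with a median of 0.10. The matches lay between -187 (AARS) and 14 (NARS), counted from 0 at the annotated start. The E-box letters CACGTG, which MYC and related factors bind, were in the windows of 1 of 16 cytosolic genes (IARS) and 3 of 14 mitochondrial genes (MARS2, CARS2 and EARS2), against 10.9% of genes on the array. A match is a description of letters and not a shown binding site. MYC itself was at 10.26 with the anti-miR and 10.74 in the control, a difference of -0.49 (1 probe set), which passed 1.5-fold with the median gene set to 0 (-0.59) and with the trend on level removed (-0.62).

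Other genes of tRNA supply are given by list. The median size of the difference, sign aside, was 0.38 for tRNA processing and 0.34 for tRNA modification, against 0.27 for the synthetases, and 0.21 for related charging, editing and amidation genes. Of 10 measured genes for related charging, editing and amidation, PSTK, a kinase in selenocysteine-tRNA synthesis, was 1.77-fold higher and none was lower by 1.5-fold. These shares are 10% and 0%, against 4.4% and 7.37% of all genes. DTD1, a deacylase that removes D-amino acids from tRNA, differed by -0.54 ± 0.01 (SD over 2 probe sets). It passed 1.5-fold with the median gene set to 0 (-0.64) and with the trend on level removed (-0.71), and 2 genes of the list were higher with the filters on dim probe sets and with the median or the highest probe set as the gene value. GATC, a subunit of the mitochondrial amidotransferase, differed by 0.48, and MTFMT, which formylates the mitochondrial initiator tRNA, by 0.51 ± 0.30 (SD over 4 probe sets).

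Of 26 measured tRNA processing genes 4 were higher and 2 lower (15.4% and 7.69%), with a median of 0.33. Of all genes 4.4% were higher and 7.37% lower, and of genes at or above the median level 7.92% and 12.6%. RPP40, a subunit of RNase P, was 2.23-fold higher, and PRORP, the nuclease of mitochondrial RNase P, 2.47-fold lower (1 probe set each). TRNT1, which adds the CCA end that synthetases charge, was higher by 1.78-fold, its 4 probe sets ranging between 0.45 and 1.27, and CLP1, an RNA kinase, 1.77-fold higher. Of 56 measured tRNA modification genes 11 were higher and 5 lower (19.6% and 8.93%), with a median of 0.18. TYW1, which acts in wybutosine synthesis on the tRNA for phenylalanine, was 4.01-fold lower, at 5.54 with the anti-miR and 7.54 in the control. It was read by 1 probe set, of a type (_s_at or _x_at) that 1 alternative leaves out. The methyltransferase genes TRMT1, TRMT61A and TRMT5 were 2.04-fold, 1.95-fold and 1.86-fold higher. With the median gene set to 0, and also with the trend on level removed, the count of higher modification genes was 7. The count of lower ones was 8 with that trend removed and 2 without _s_at and _x_at probe sets.

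The 21 measured genes of RNA polymerase III, which transcribes tRNA genes, had a median of 0.26. Of them 5 were higher and 2 lower (23.8% and 9.52%, against 4.4% and 7.37% of all genes). With the trend on level removed 3 were higher and the median was 0.09. BRF2 was 2.45-fold higher on average with probe sets at 1.88 and 0.70, POLR3GL 1.95-fold and CRCP 1.70-fold higher, and BDP1 lower, at 5.34 against 6.34. Among 12 cytosolic elongation factor genes, EEF1G, a subunit of the exchange factor that recharges EEF1A, was 2.43-fold lower (10.00 against 11.29, 1 probe set, of a type that 1 alternative leaves out). PELO, a ribosome rescue factor, was 1.61-fold higher (0.52, under 1.5-fold, with the trend on level removed), while EEF2K differed by -0.41 and EEF1AKMT1 by 0.40. Among 9 mitochondrial translation factors, GFM1, an elongation factor, was 2.04-fold lower in both of its probe sets, and MTRF1, a release factor, 1.69-fold higher. MTIF3 and MTRFR differed by 0.32 and -0.32. EEF2K, EEF1AKMT1 and MTRFR had no value in the alternative that leaves out the EEF1G probe set.

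Of 15 measured genes that sense amino acids, 2 were higher and 2 lower, with a median of 0.10. Each share is 13.3%, against 4.4% higher and 7.37% lower of all genes. EIF2AK4, the kinase GCN2 that responds to uncharged tRNA, averaged -1.07, with probe sets at -2.13 and -0.02 that disagreed. Its inhibitor IMPACT was 1.83-fold lower, SESN1 2.06-fold higher and NPRL2 1.57-fold higher. Of the MYC partners, MXI1 was 1.56-fold higher, while MNT differed by 0.40 and MLX by 0.38. NPRL2 and MXI1 fell short of 1.5-fold with the median gene set to 0 (both 0.54). Neither array showed IMPACT, EIF2AK4, SESN1 or MXI1 above the nonspecific controls. The same held for at least 1 array of PSTK, GATC, MTFMT, RPP40, TRNT1, PRORP, TRMT1, TRMT61A, TYW1, BRF2, POLR3GL, BDP1, MTRF1, EEF2K, MTRFR, NPRL2, MNT and MLX, so their folds are not exact sizes.

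**Figure D5:**
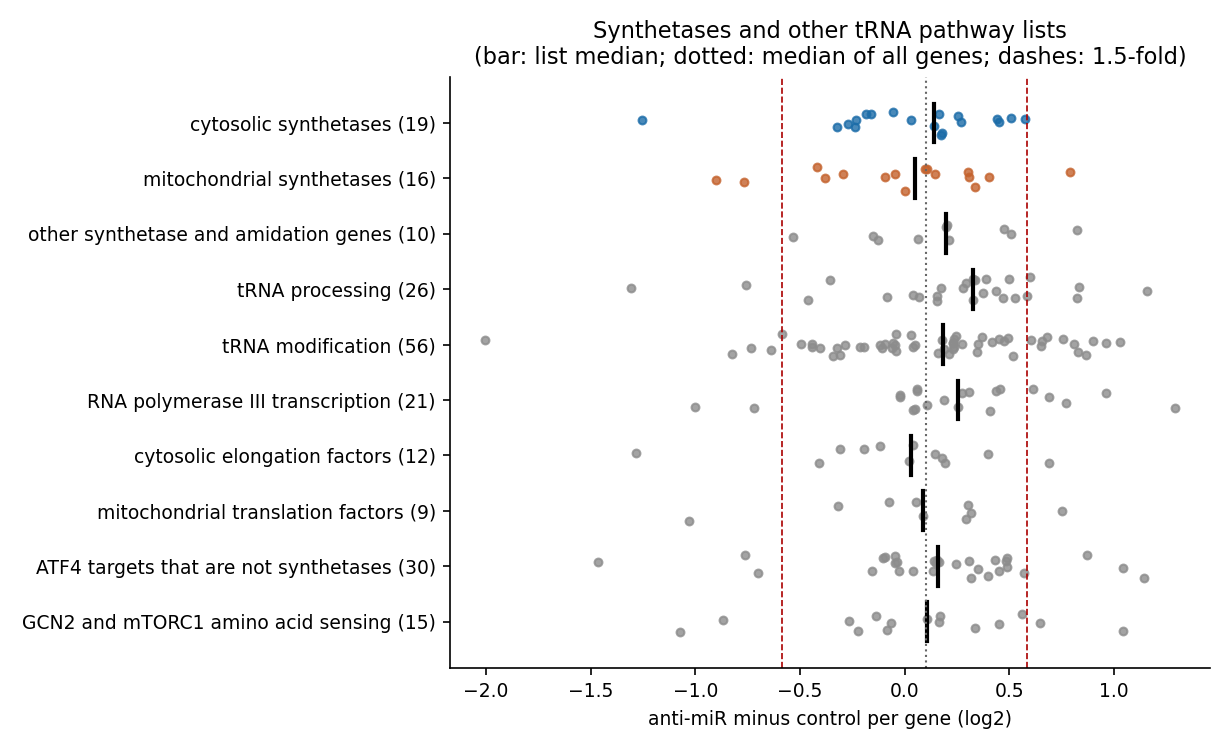
Anti-miR minus control difference (log2) per gene in 10 lists, with the number of measured genes in brackets; thick bars are list medians, the dotted line the median of all genes (0.10) and the dashed lines 1.5-fold. The synthetase medians (0.14 and 0.05) lie near the dotted line, and that of tRNA processing is at 0.33.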

How the data were processed

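Both arrays were used, 1 per group. The authors deposited log2 levels per probe set from RMA, as named in the submitters' processing notes. Which RMA version was run, and on which arrays, is not given in the sources used here. All 49386 probe sets had values. Genes were named through the platform annotation, with symbols updated by Entrez ID from RefSeq (GRCh38.p14), and 88 probe sets were annotated to 1 synthetase alone. A further 6 that also list another gene were left out; they differed by 0.03 to 0.31. The files name no genome build, so coordinates are given for printed sequences alone.

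A gene's value was the mean of all its probe sets, and differences are anti-miR minus control. With 1 array per group no p-value was computed. The members and lists were chosen with earlier results of these data known. Every synthetase is named, and from each other list up to 4 genes with the largest difference among those with a mean level at or above the median of both arrays (4.63); AIMP1, AIMP2, EEF1E1, ATF4, ASNS and MYC were named in any case. The alternatives were 2 filters on dim probe sets, other gene summaries, removal of _s_at and _x_at probe sets, 2 scalings and a 2-fold threshold. The counting script was tested on simulated data. Computations ran in Python 3.11.15 with statsmodels 0.14.6, scipy 1.17.1, pandas 2.3.3 and numpy 2.4.6; figures were drawn with matplotlib 3.10.9. The number of arrays limits the precision.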

Additional observations from a re-analysis of the deposited data

How the results depend on the processing

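No paired analysis was possible because there was 1 array per group, and for the same reason no array could be left out. The cytosolic counts (0 higher, 1 lower) held in all 8 alternatives. The mitochondrial counts (1 higher, 2 lower) were 0 and 1 with the filter at the 75th percentile, which left 10 genes measured, and 0 and 0 at a 2-fold threshold. Of 35 synthetases, 29 kept 1 sign in every setting that gave a value, and the sign turned for 6, none with a difference over 0.16. Of 489 values of named genes under the alternatives, 477 moved by less than the pooled probe set SD of 0.30 and 12 by more. Many of the 477 could not move further. Setting the median gene to 0 shifts every gene by 0.10, and a gene with 1 probe set keeps its value under the summaries and filters. No difference of at least 1.5-fold changed sign. Signal over background limits the mitochondrial genes: the gene mean of 13 of 16 did not exceed the nonspecific controls on both arrays, although 1 probe set of MARS2 did.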
